A study of Mus musculus with 4 samples.

Results

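The transcripts described here encode NF-κB transcription factor subunits and the proteins that hold the pathway back, in mouse aorta after chronic rosiglitazone. The list names 10 genes, Nfkb1, Nfkb2, Rela, Relb, Rel, Nfkbia, Nfkbib, Nfkbie, Tnfaip3 and Birc3. Its members were all probe sets whose single gene symbol in the platform's probe table is one of these, 12 of 12422 probe sets for 9 of the 10 genes. Nfkb1 was not analysed here. The arrays were Affymetrix MG-U74Av2 oligonucleotide arrays, hybridised with pooled aortic RNA from adult male mice of the C57BL/6J strain. A rosiglitazone group of 2 arrays (replicates 1 and 2) came from mice given this agonist of the nuclear receptor PPARγ at 25 mg/kg/day over 21 days, and a vehicle group of 2 arrays (replicates 3 and 4) from mice given vehicle over 21 days. The size of each pool, and whether the arrays of a group hold separate pools, are not given in the sources used here, so p-values reflect array-to-array spread alone, which could be technical.

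NF-κB is a family of dimers that share a DNA-binding Rel homology domain. In resting cells the dimers are held in the cytoplasm by IκB proteins, and inflammatory receptors activate the IκB kinases, which mark IκB for destruction and free the dimers to enter the nucleus. Several target genes of NF-κB encode its own inhibitors, above all Nfkbia, Nfkbie and Tnfaip3, so that transcript levels of these inhibitors are widely used as a readout of pathway activity in macrophages, endothelium and smooth muscle.

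The RefSeq promoter table (GRCm38.p6, from 250 bases before to 50 bases after each transcript start) held 11 starts for 8 of the 10 genes. The κB consensus, the 10-base element that NF-κB dimers bind, was searched on both strands. It was present at 7 of these 11 starts, for 5 of the 8 genes, and at 2779 of the 32851 starts in the whole table, or 8.46%. The 3 starts of Nfkb2 lie close together, and overlapping windows repeat a match. The promoters of Nfkbia and Nfkb2 are printed whole because both genes are textbook NF-κB targets whose intensities were lower on both rosiglitazone arrays, with the letters of the κB matches in capitals. The Nfkbia window is chr12:55492598-55492897 on the minus strand, with its match at positions -29 to -20 from the start. The Nfkb2 window is that of its first start, chr19:46304487-46304786 on the plus strand, with matches at -39 to -29 and at -11 to -2. Both are written 5′ to 3′ along the transcribed strand.
Nfkbia: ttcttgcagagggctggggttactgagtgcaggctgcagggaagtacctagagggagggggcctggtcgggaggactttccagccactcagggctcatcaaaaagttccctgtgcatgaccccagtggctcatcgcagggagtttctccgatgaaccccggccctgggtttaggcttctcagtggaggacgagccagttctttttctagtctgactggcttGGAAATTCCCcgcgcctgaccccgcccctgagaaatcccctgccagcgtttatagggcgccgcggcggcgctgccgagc
Nfkb2: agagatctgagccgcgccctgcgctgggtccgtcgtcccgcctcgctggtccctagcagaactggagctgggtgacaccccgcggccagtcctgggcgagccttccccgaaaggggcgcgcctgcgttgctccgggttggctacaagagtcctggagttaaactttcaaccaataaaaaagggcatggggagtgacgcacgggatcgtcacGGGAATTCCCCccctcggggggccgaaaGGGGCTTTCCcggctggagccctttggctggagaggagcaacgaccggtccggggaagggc

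Shorter windows, with 10 bases on either side, show matches of the 3 further members that have a match. The Rel match is at -92 to -82 (chr11:23771041-23771071, minus strand), where overlapping matches on both strands merge into 11 bases. The Nfkbie match is at -106 to -97 (chr17:45555584-45555613, plus strand). The Tnfaip3 match shown is the nearer of 2 to its first start, at -12 to -3 (chr10:19015403-19015432, minus strand). For Rela, Nfkbib and Birc3 these letters are not in the windows searched. Presence of a match did not go with 1 direction of change. Rela (97813_at) and Birc3, without a match, were also lower on both rosiglitazone arrays. Rel and Nfkbie, with a match, were higher on both, and the groups of Tnfaip3 overlapped. A link between match and change was not tested. A match is a description of the letters, not of binding in these aortas.
Rel: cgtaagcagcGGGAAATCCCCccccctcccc
Nfkbie: gcagcaaacaGGGGGATTCCggaggggcgg
Tnfaip3: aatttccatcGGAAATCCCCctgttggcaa

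Each probe set has 1 linear hybridisation intensity per array, and no detection calls were used. Precision is limited by the number of arrays. Any intensity below 148, the pooled 20th percentile, was set to this floor before log2 was taken. A probe set was tested when its mean over the 4 arrays reached 414, the 40th percentile, which kept 7134 probe sets. Among the members 8 probe sets for 7 genes were tested, and 4 were too dim, 1 each of Rela, Relb, Rel and Tnfaip3. The nearest members on either side of that limit were Nfkbie, with a geometric mean intensity of 427.6, and Tnfaip3, with 402.8. The correlation of log2 intensities was 0.881 within the rosiglitazone pair and 0.892 within the vehicle pair, over probe sets, which are not independent replicates. The ratio of 3′ to 5′ signal, a gauge of RNA integrity, was 7.74 and 9.62 with rosiglitazone against 8.88 and 11.9 with vehicle for actin. For Gapdh it was 8.79 and 10.8 with rosiglitazone and 11.1 on both vehicle arrays. The 3′ signal was thus at least 7.74 times the 5′ signal on all 4 arrays, a strong bias to the 3′ end in both groups. The part of RNA integrity in the member results was not tested.

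Of the members above the filter, Nfkbia had the widest gap between the groups. It encodes IκBα, the inhibitor that NF-κB itself induces most rapidly, and its intensity was about 2-fold lower with rosiglitazone on both of its probe sets, without passing the adjustment over all probe sets. No member probe set (0 of 8) passed an adjusted p of 0.05 in limma, where 26 of 7134 probe sets did (0.364%), 23 of them lower (0.322%) and 3 higher (0.0421%). At an unadjusted p under 0.05, 3 of the 8 were lower, both probe sets of Nfkbia and that of Birc3, against 5.76% of all probe sets, and 0 were higher, against 5.12%. The groups did not overlap for 6 of the 8, lower with rosiglitazone for 5, against 21.8% of all probe sets, and higher for 1, Nfkbie, against 19.0%. The median log2 fold change of the 8 was -0.57, against -0.024 over all probe sets tested. Birc3 and Nfkbie reached the filter through 1 group alone, so these counts are a description of the tested probe sets. Over all 12 probe sets 5 had overlapping groups, and the median was -0.32.

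**Figure D1:**
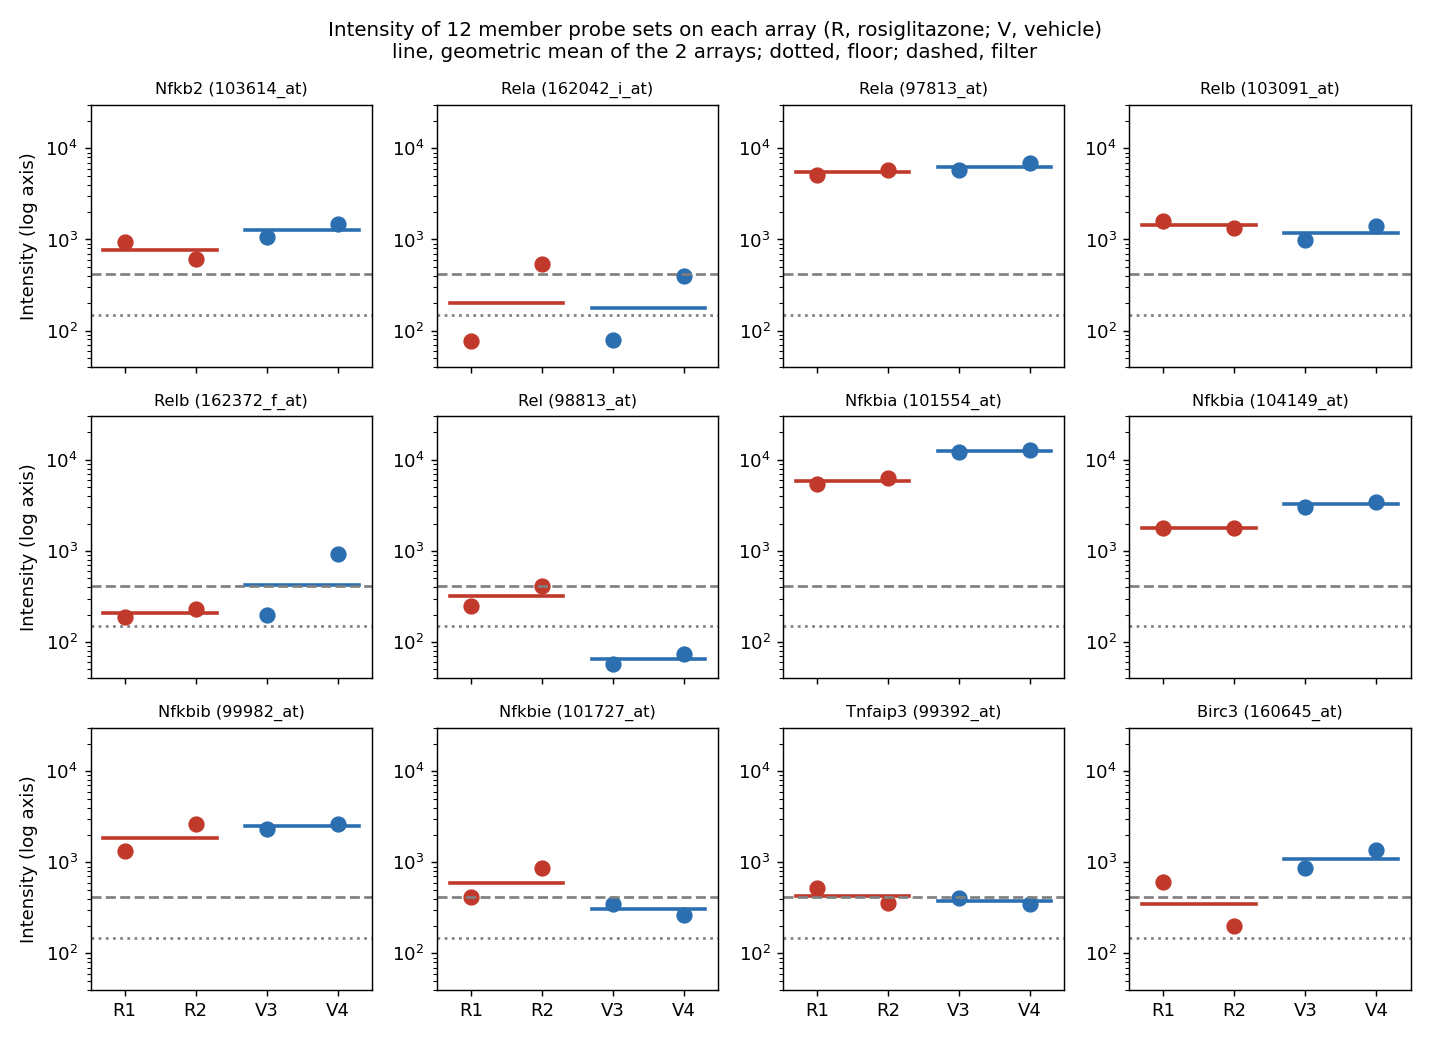
Intensity (log axis) of each of the 12 member probe sets on the rosiglitazone arrays (R1, R2, red) and the vehicle arrays (V3, V4, blue), with lines at the geometric mean of each pair, a dotted line at the floor of 148 and a dashed line at the filter of 414. Both Nfkbia panels show tight pairs with the rosiglitazone arrays below the vehicle arrays, whereas the pairs of Rela (97813_at) lie at nearly the same height.

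Among the inhibitors that bind NF-κB directly, Nfkbia (probe set 101554_at) had intensities of 5454 and 6374 on the rosiglitazone arrays, against 12164 and 12951 on the vehicle arrays. Its lowest vehicle value was 1.91 times its highest rosiglitazone value, while the arrays of a group differed by 1.17-fold with rosiglitazone and 1.06-fold with vehicle. The mean log2 intensity was 12.53 ± 0.16 in the rosiglitazone pair and 13.62 ± 0.06 in the vehicle pair (SD, n = 2 each). The log2 fold change was -1.09 with a standard error of 0.21 and a 95% interval from -1.57 to -0.61, which is 2.13-fold lower (limma, unadjusted p = 0.000568, adjusted p = 0.078). Of all probe sets tested, 5.75% had a log2 fold change as low or lower.

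The second Nfkbia probe set, 104149_at, had intensities of 1788 and 1794 with rosiglitazone, against 3074 and 3428 with vehicle. Here too the groups did not overlap, the lowest vehicle value being 1.71 times the highest rosiglitazone value. Its log2 fold change was -0.86 (standard error 0.28, 95% interval -1.48 to -0.23, 1.81-fold lower; limma, adjusted p = 0.284). The intervals of both probe sets included a log2 value of -1 and stayed below 0. Both probe sets measure 1 gene in the same pools and are not independent replicates. With rosiglitazone replicate 2 left out, 101554_at passed (log2 fold change -1.20, adjusted p = 0.0483), the only member probe set to pass under any alternative run. Over its alternatives the adjusted p ranged from 0.0483 to 0.672, and with any 1 array left out the log2 fold change lay between -1.20 and -0.98 for 101554_at and between -0.94 and -0.78 for 104149_at.

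Nfkbib, which encodes IκBβ, an inhibitor less responsive to NF-κB than IκBα, had intensities of 1325 and 2631 with rosiglitazone, against 2331 and 2662 with vehicle. The groups overlapped, and the 1.99-fold gap between the rosiglitazone arrays exceeded the gap between the group means. Its log2 fold change was -0.42 (standard error 0.37, 95% interval -1.25 to 0.42; limma, adjusted p = 0.744). The direction rested on rosiglitazone replicate 1, without which the value was 0.08.

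Nfkbie, the gene of the inducible inhibitor IκBε, was the only tested member with both rosiglitazone arrays above both vehicle arrays, at 412 and 864 with rosiglitazone, against 353 and 266 with vehicle. The gap between the groups was 1.17-fold, less than the 2.10-fold gap between the rosiglitazone arrays. The log2 fold change was 0.96 with a standard error of 0.80 and a 95% interval from -0.84 to 2.76 (limma, adjusted p = 0.726), and it lay between 0.43 and 1.50 with 1 array left out. At these intensities, close to the filter, no difference was detectable.

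**Figure D2:**
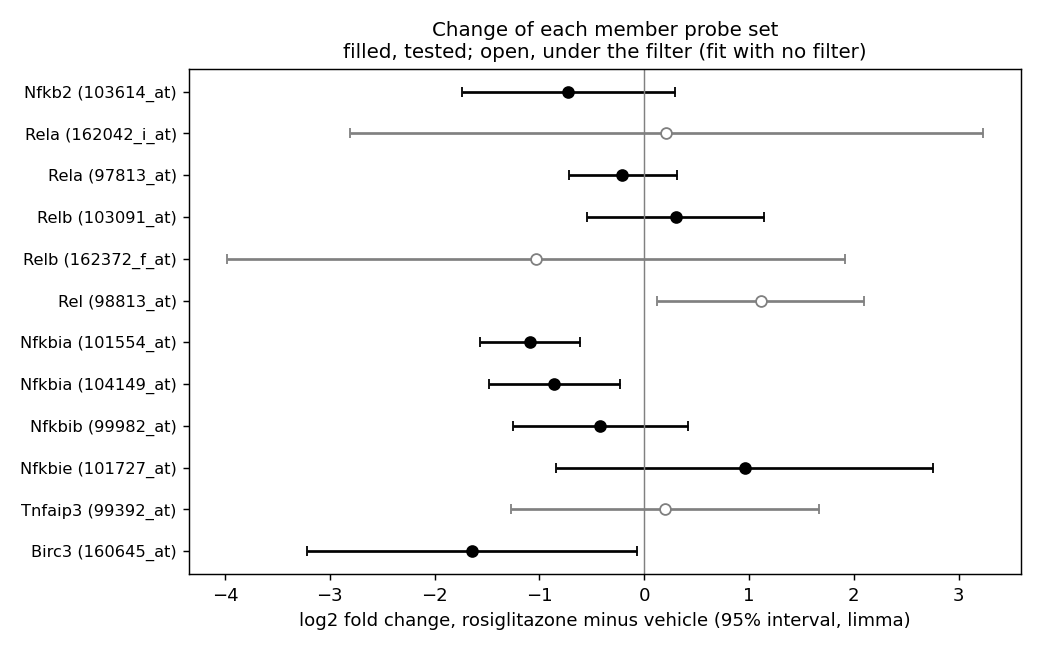
Log2 fold change (rosiglitazone minus vehicle, horizontal axis) of each member probe set with its 95% interval from limma. Filled points were tested and open points are the 4 probe sets under the filter, from a fit with no filter. The intervals of both Nfkbia probe sets, of Birc3 and of Rel do not reach 0, and none of these passed the adjustment.

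Of the feedback proteins that act upstream of IκB, Tnfaip3 encodes A20, a ubiquitin-editing enzyme that shuts off signalling from the TNF receptor and Toll-like receptors. Its intensities were 520 and 359 with rosiglitazone, against 404 and 349 with vehicle. The groups overlapped, and the probe set lay under the filter. In a fit with no filter its log2 fold change was 0.20 (95% interval -1.27 to 1.67; limma, adjusted p = 0.947), an interval that holds more than 2-fold in either direction.

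Birc3 encodes a cellular inhibitor of apoptosis, a ubiquitin ligase recruited to the TNF receptor and itself induced by NF-κB. It had the lowest fold change of the tested members, with intensities of 612 and 199 on the rosiglitazone arrays, against 863 and 1378 on the vehicle arrays. The groups did not overlap, but the rosiglitazone arrays differed by 3.08-fold. The log2 fold change was -1.64 with a standard error of 0.70 and a 95% interval from -3.22 to -0.07 (limma, unadjusted p = 0.0424, adjusted p = 0.436). Leaving out rosiglitazone replicate 1 gave -2.45, and leaving out replicate 2 gave -0.83. The related gene Birc2, whose name RefSeq also lists as an alias of Birc3 but which has probe sets under its own gene identifier, had intensities of 652 and 775 with rosiglitazone, against 1146 and 1297 with vehicle on its brighter probe set. Its log2 fold change was -0.78 (limma, adjusted p = 0.568), and its other probe set had overlapping groups.

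Of the subunits, Rela encodes p65, the main transactivating partner of the canonical dimer. Its probe set 97813_at had intensities of 5158 and 5816 with rosiglitazone, against 5830 and 6838 with vehicle. The highest rosiglitazone value was just below the lowest vehicle value. The log2 fold change was -0.21 (standard error 0.23, 95% interval -0.72 to 0.31; limma, adjusted p = 0.795), an interval of the ratio from 0.608 to 1.24. Measured on the same arrays, the log2 fold change of Nfkbia minus that of Rela was -0.88 for 101554_at and -0.65 for 104149_at, differences that no scaling of a whole array alters. The log2 ratio of Nfkbia (101554_at) to Rela had an SD of 0.04 between the rosiglitazone arrays and 0.10 between the vehicle arrays. The difference between the 2 genes was not tested. A further Rela probe set, 162042_i_at, was dim and uneven, at 76 and 536 with rosiglitazone, against 79 and 399 with vehicle.

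Nfkb2 encodes p100, which is processed to p52 and also acts as an inhibitor in its unprocessed form. Its intensities were 938 and 613 with rosiglitazone, against 1074 and 1466 with vehicle. The groups did not overlap, with a gap of 1.14-fold that was smaller than the 1.53-fold and 1.36-fold differences within the rosiglitazone and vehicle pairs. The log2 fold change was -0.73 (standard error 0.45, 95% interval -1.74 to 0.29; limma, adjusted p = 0.606), from -1.03 to -0.42 with 1 array left out.

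Relb encodes the partner of p52 in the non-canonical pathway. Probe set 103091_at had intensities of 1595 and 1330 with rosiglitazone, against 995 and 1412 with vehicle, and the groups overlapped. Its log2 fold change was 0.30 (standard error 0.37, 95% interval -0.55 to 1.14; limma, adjusted p = 0.827). The dimmer probe set 162372_f_at had 189 and 231 with rosiglitazone, against 197 and 920 with vehicle, so that 1 vehicle array set its lower mean with rosiglitazone. Nfkb2 and Relb, whose products form 1 dimer, had fold changes of opposite sign, and neither passed the test.

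Rel encodes c-Rel, a subunit best known from lymphocytes and other blood cells. Its only probe set had intensities of 246 and 414 with rosiglitazone, against 57 and 73 with vehicle. Both rosiglitazone arrays lay above both vehicle arrays, which were under the floor. With the vehicle arrays set to the floor, the mean of Rel was at least 2.16-fold higher with rosiglitazone, and the interval of the fitted ratio ran from 1.09 to 4.28 (limma with no filter, adjusted p = 0.475), and the vehicle SD of 0 is set by the floor. With the floor at the 40th percentile no difference could be measured (log2 fold change 0.00). All 4 values were at or under the filter's intensity of 414, so the level of Rel in these aortas is poorly measured.

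**Figure D3:**
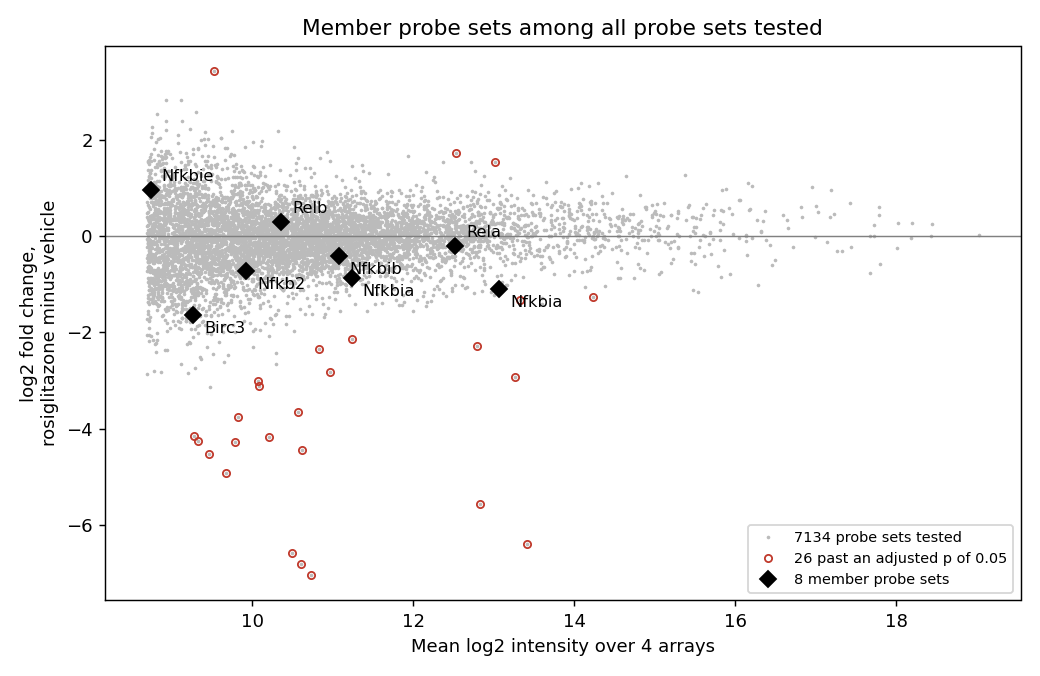
Log2 fold change (rosiglitazone minus vehicle) against the mean log2 intensity over the 4 arrays for the 7134 probe sets tested (grey), the 26 past an adjusted p of 0.05 (red circles) and the 8 member probe sets (black diamonds). The brighter Nfkbia probe set lies below most probe sets of like intensity, and the members Nfkbie and Birc3 lie among dim probe sets with a wide spread.

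**Figure D4:**
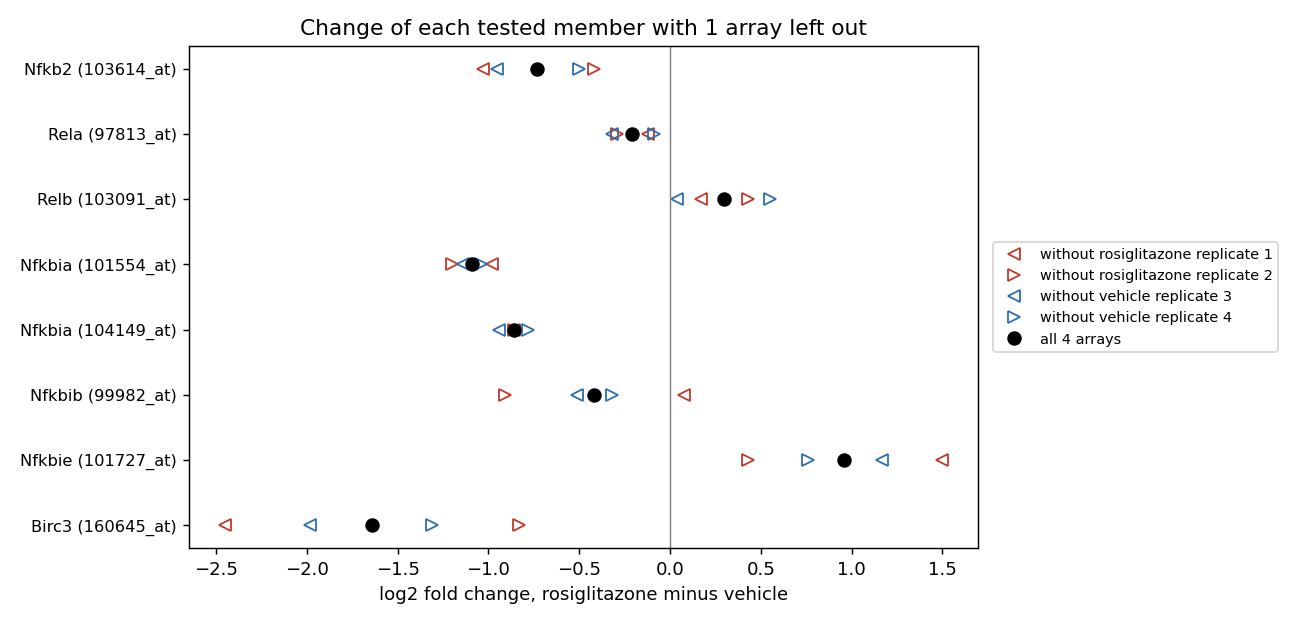
Log2 fold change of each tested member with all 4 arrays (black) and with 1 array left out (red, a rosiglitazone array; blue, a vehicle array). Nfkbia stays between -1.20 and -0.78 over both probe sets, Birc3 runs from -2.45 to -0.83, and Nfkbib crosses 0 without rosiglitazone replicate 1.

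The rest of the pathway was described through 8 lists of 166 different genes, of which 88 were tested, each on its brightest probe set. Of these 88, 63 had a fold change below 0, against 51.9% of all probe sets tested. Some of the 88 reached the filter through the vehicle group alone, so this count leans to lower values. Among them were Il1b, Saa3, Cxcl2, Ccl3 and Gadd45b, which are also among the calls below, so the count of calls leans lower too. Only 1 of the 88, a nuclear co-regulator, reached the filter through the rosiglitazone group alone. In limma 7 of the 88 passed an adjusted p of 0.05, all lower with rosiglitazone, where 0.322% of all probe sets did so. None (0) passed when either vehicle array (replicate 3 or 4) was dropped, with no filter, or with the floor at the 40th percentile. The floor at the 40th percentile equals the filter, so that run too left out no dim probe set. Il1rn also missed the threshold in limma after median centring of the arrays (adjusted p = 0.0879) or quantile normalization (adjusted p = 0.0708). With the floor at the 5th percentile Ccl3 (adjusted p = 0.0678) and Il1rn (adjusted p = 0.0581) both missed it. With no intensity trend 3 of the 7 passed. In these 8 lists the 7 calls were all among ligands and receptors or target genes.

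Among ligands and receptors that feed NF-κB, 8 of 10 tested genes were below 0, the median change was -0.86 on the log2 scale, and 2 fell past the threshold. Of the 10, 3 reached the filter through the vehicle group alone, and over all 19 with a probe set 12 lay below 0, with a median of -0.60. Il1b, the ligand interleukin 1 beta, lay under the floor on both rosiglitazone arrays, at 111 and 109, against 18270 and 15031 with vehicle. With the rosiglitazone arrays set to the floor, its mean was at least 112-fold lower (limma, adjusted p = 1.33e-05). The interval of the fitted ratio ran from 0.00533 to 0.015. The rosiglitazone SD of 0 is set by the floor, so the p-value takes in no measured rosiglitazone spread. With the floor at the 40th percentile the log2 fold change of Il1b was -5.32. Cd14, the endotoxin co-receptor, had 3496 and 3642 with rosiglitazone, against 27529 and 26830 with vehicle (log2 fold change -2.93, adjusted p = 0.000145). The receptors for TNF did not pass. Tnfrsf1b, the TNF receptor of leukocytes and endothelium, had 918 and 1111 with rosiglitazone, against 2694 and 2840 with vehicle (log2 fold change -1.45, adjusted p = 0.105). Tnfrsf1a, the widely expressed TNF receptor, had -0.60 (adjusted p = 0.486), and its dimmer probe set had overlapping groups.

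Between receptor and IκB, 0 genes passed in limma. Adaptors and signalling enzymes had 10 of 14 below 0 and a median of -0.22, and at an unadjusted p under 0.05 only Traf4, a TRAF-family protein, stood out, higher at 5663 and 8110 with rosiglitazone against 3287 and 4521 with vehicle (log2 fold change 0.81, adjusted p = 0.316), while its other probe set had overlapping groups. The IκB kinases and their partners had overlapping groups in 4 of 4 tested genes and a median of 0.13, with 0 at an unadjusted p under 0.05. Of all probe sets tested, 21.8% were lower and 19.0% higher without overlap, and the others overlapped too. Ikbkb, the catalytic kinase of the canonical pathway, had 828 and 615 with rosiglitazone, against 705 and 586 with vehicle. Ikbkg, the scaffold NEMO, had 1085 and 1320 with rosiglitazone, against 1238 and 1223 with vehicle, on a probe set whose suffix marks probes shared with similar sequences. Its dimmer probe set, without that suffix, was lower on both rosiglitazone arrays (655 and 476, against 964 and 908 with vehicle, limma adjusted p = 0.647). The machinery that ubiquitinates IκB had 8 of 11 below 0 and a median of -0.23, with 0 genes at an unadjusted p under 0.05.

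Other inhibitors and atypical IκB proteins had 7 of 10 tested genes below 0 and a median of -0.20. Of the 10, 2 reached the filter through the vehicle group alone, and over all 11 with a probe set 8 lay below 0, with a median of -0.27. None (0 of 10) passed the adjustment in limma and 3 were lower at an unadjusted p under 0.05, against 5.76% of all probe sets. Nfkbiz, the nuclear IκBζ induced by interleukin 1 and endotoxin, had 143 and 306 with rosiglitazone, against 1210 and 1002 with vehicle (log2 fold change -2.37, 95% interval -4.01 to -0.73, adjusted p = 0.249), and its dimmer probe set had overlapping groups. Zfp36, a protein that destabilises cytokine mRNAs, had 477 and 1317 with rosiglitazone, against 2742 and 2298 with vehicle (log2 fold change -1.66, adjusted p = 0.221). Rnf11, a partner of A20, had -0.56 (adjusted p = 0.387), on a probe set whose suffix marks probes shared with similar sequences. Nuclear co-regulators were split, with 4 of 8 below 0, a median of 0.09 and 0 genes at an unadjusted p under 0.05.

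Genes that NF-κB is known to activate were the lists with further calls. Of 16 tested inflammatory targets, 15 lay below 0, and the median was -1.69. The groups did not overlap for 12 in that direction, against 21.8% of all probe sets tested. Of the 16, 7 reached the filter through the vehicle group alone, so these counts lean to lower values. Over all 30 genes of the list with a probe set, from the fit with no filter, 25 lay below 0, 9 had overlapping groups and the median was -0.78. Il1b (above), Saa3, Cxcl2, Ccl3 and Il1rn fell past the threshold. Saa3 and Cxcl2, like Il1b, lay under the floor on both rosiglitazone arrays, so their rosiglitazone SD of 0 is set by the floor. Il1rn, the interleukin 1 receptor antagonist, had 828 and 224 with rosiglitazone, against 3888 and 7520 with vehicle (log2 fold change -3.65, limma adjusted p = 0.0455). With 1 array left out its log2 fold change lay between -4.59 and -2.71, and that of Ccl3 between -5.63 and -3.26. The list's median was -2.51 without rosiglitazone replicate 1. Of 19 survival and stress targets, 14 lay below 0, with a median of -0.28. Gadd45b alone fell past the threshold, at 86 and 274 with rosiglitazone against 3373 and 4444 with vehicle (limma, adjusted p = 0.00768). Its other probe set did not pass (adjusted p = 0.22). Of the 19, Gadd45b alone reached the filter through the vehicle group only. Over all 22 with a probe set 16 lay below 0, with a median of -0.29. Sod2, the mitochondrial superoxide dismutase and a standard NF-κB target, had 17847 and 13692 with rosiglitazone, against 10265 and 14991 with vehicle, with overlapping groups. Ier3, an early response gene, had -2.42 (adjusted p = 0.0687).

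**Figure D5:**
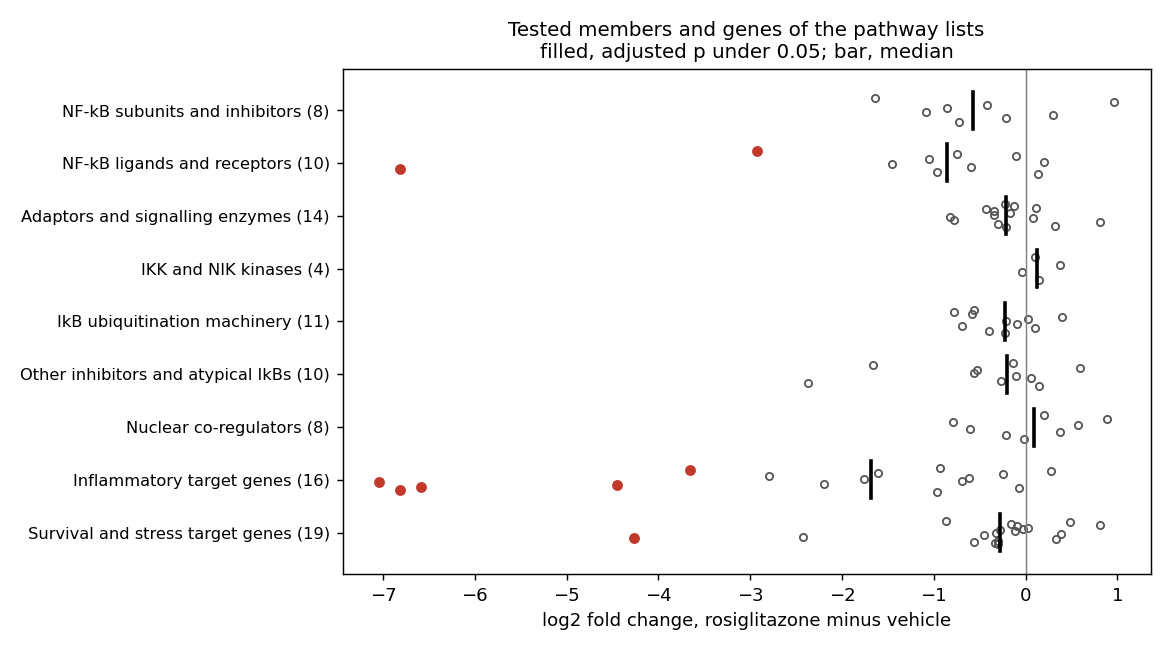
Log2 fold change (rosiglitazone minus vehicle, horizontal axis) of the 8 tested member probe sets and of the tested genes of each pathway list, with the number tested in brackets, filled points for an adjusted p under 0.05 and a bar at the median. The filled points lie among ligands, receptors and target genes. The medians of adaptors, kinases, ubiquitination genes and co-regulators lie between -0.23 and 0.13. Those of other inhibitors (-0.20) and of survival and stress targets (-0.28) lie close to them.

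Of the tested leukocyte markers 3 passed, Cd14, S100a8 and S100a9, all lower with rosiglitazone, where 0.364% of all probe sets tested passed. In pooled tissue RNA, fewer cells of a type and less RNA per cell cannot be told apart. All 15 tested macrophage markers lay below 0 (median -0.76, 1 past the threshold, Cd14), and the intensities of the 17 genes with a probe set summed to 36037 and 38752 with rosiglitazone, against 82920 and 88901 with vehicle. Without Cd14 the sums were 35256 and 32395 with rosiglitazone, against 55391 and 62071 with vehicle. Neutrophil markers had 9 of 10 below 0 (median -0.61) and 2 past the threshold, S100a8 and S100a9, with sums of 10350 and 12715 with rosiglitazone, against 135333 and 200876 with vehicle. These 2 genes made up most of the vehicle sums, and the other 12 genes summed to 11024 and 7268 with rosiglitazone, against 13905 and 13425 with vehicle. T cell markers had 2 of 2 tested genes below 0 (median -0.69, but -1.20 without rosiglitazone replicate 1, -0.19 without replicate 2 and -0.01 over all 11 genes with a probe set), with sums of 4667 and 5377 with rosiglitazone, against 5449 and 5972 with vehicle, and B cell markers had 5 of 7 below 0 (median -0.22), with sums of 10409 and 11152 with rosiglitazone, against 11948 and 12611 with vehicle. Of the tested markers, 2 of macrophages, 2 of neutrophils and 2 of B cells reached the filter through the vehicle group alone, so their counts lean to lower values. Over all genes with a probe set the medians were -0.76 for macrophages (16 of 17 below 0), -0.72 for neutrophils (12 of 14) and -0.13 for B cells (6 of 10). Of all these leukocyte genes with a probe set only Cd8b1 was under the floor on all 4 arrays. Their part in the member results was not tested.

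Among markers of the vessel wall, fat and blood, Tagln and Fabp3 passed, where 0.364% of all probe sets tested did. Smooth muscle markers had 8 of 8 below 0 (median -1.19, with Tagln past the threshold), and summed to 57546 and 63077 with rosiglitazone, against 119665 and 142985 with vehicle. Of these 8, 1 reached the filter through the vehicle group alone. Fibroblast markers had 10 of 11 below 0 (median -0.57) and endothelial markers 7 of 9 (median -0.37). The endothelial marker with the smallest p, Cldn5, was higher. It had 4315 and 3704 with rosiglitazone, against 1555 and 1369 with vehicle (log2 fold change 1.45, limma adjusted p = 0.078). Erythrocyte markers had 3 of 5 below 0 (median -0.73, from -0.92 to -0.42 with 1 array left out). Over all 6 with a probe set 3 lay below 0, with a median of -0.36. Their sums overlapped, at 507470 and 669832 with rosiglitazone against 564339 and 658452 with vehicle. White adipocyte markers had 4 of 8 below 0 (median -0.03, which turned to 0.05 after median centring of the arrays). Their sums were 279939 and 318946 with rosiglitazone against 217851 and 234305 with vehicle, most of it from Adipoq. Brown adipocyte markers had 6 of 7 above 0 (median 0.44, with Fabp3 past the threshold) and summed to 412321 and 450320 with rosiglitazone against 291518 and 296339 with vehicle. Cidea, a lipid droplet protein of brown fat, made up most of the brown sums. It had intensities of 240828 and 286124 on the rosiglitazone arrays, against 188712 and 199365 on the vehicle arrays (limma, adjusted p = 0.553). Tagln missed the threshold after median centring (adjusted p = 0.0933) and with the floor at the 5th percentile (adjusted p = 0.0581). Of the called marker genes, S100a9 alone still passed with no intensity trend or without either vehicle array, and none (0) did with no filter or the floor at the 40th percentile. With 1 array left out the medians of the kinases (-0.02 to 0.14), the co-regulators (-0.24 to 0.29) and the white adipocyte markers (-0.08 to 0.16) took both signs. The part of these cell types in the member results was not tested.

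The 5 genes whose pattern over the 4 arrays lay closest to that of Nfkbia (101554_at), by Euclidean distance between log2 intensities centred on each probe set's mean, were Ccn1, Sema7a, Dstn, Ptgis and Cma2, with distances from 0.073 to 0.138 against a median of 1.28 over all probe sets tested. Ccn1, a matricellular early response protein, had 416 and 457 with rosiglitazone, against 880 and 970 with vehicle. Sema7a, a semaphorin of immune and neural cells, had 380 and 458 with rosiglitazone, against 800 and 870 with vehicle. Dstn, the actin-severing protein destrin, had 28369 and 35444 with rosiglitazone, against 67048 and 74793 with vehicle. Ptgis, prostacyclin synthase, had 2918 and 3069 with rosiglitazone, against 6604 and 6828 with vehicle. Cma2, a mast cell chymase gene, had 2115 and 2640 with rosiglitazone, against 4650 and 5568 with vehicle, on a probe set whose suffix marks probes shared with similar sequences. None of the 5 passed the adjustment in limma (adjusted p from 0.0687 to 0.585), and the second Nfkbia probe set lay at a distance of 0.283, with 55 probe sets nearer.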

How the data were processed

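RNA from 4 pooled aortic samples was measured on Affymetrix MG-U74Av2 arrays. The deposited values are 1 intensity per probe set and array, on a linear scale, judged from the values, and the software, background correction and scaling that made them are not given in the sources used here. Arrays share a trimmed mean intensity of 1501, which shows a global scaling. Of 12488 probe sets, 66 controls were not tested. The platform's probe table gave the names: 10833 probe sets had 1 symbol, 396 several and 1193 none listed. Gene identifiers were found in the GRCm38.p6 gene table for 10817, and 0 symbols changed. Probe sets with several symbols named no gene. Promoters and their coordinates are from RefSeq (GRCm38.p6).

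Intensities were floored at 148, taken to log2 and filtered at a mean of 414. Groups were compared with limma 3.58.1 in R 4.3.3 (lmFit, eBayes with an intensity trend, two-sided, Benjamini-Hochberg over 7134 probe sets, threshold 0.05), with 2 residual degrees of freedom (prior, median 7.14). The procedure was run on simulated data with planted decreases, as a check of the code and not of the member results. Fold changes are rosiglitazone over vehicle. An exact permutation test of 2 against 2 arrays cannot reach 0.05 and was not used. Alternatives were no filter, floors at other percentiles, median centring, quantile normalization, no trend and each array left out.

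The genes named were all members, up to 4 per list by smallest p, genes past the threshold and the 5 nearest to Nfkbia. The members and the 8 pathway and 10 marker lists were chosen with earlier results of these data known.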

Additional observations from a re-analysis of the deposited data

How the results depend on the processing

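No member probe set passed under any alternative except Nfkbia (101554_at) without rosiglitazone replicate 2, so the count of members past the threshold ran from 0 to 1 with 1 array left out. Of 84 values of member probe sets under alternatives, 1 reversed, Nfkbib at 0.08 without rosiglitazone replicate 1 (range -0.91 to 0.08 with 1 array left out), and 1 came to pass, that of Nfkbia. The counts around the members varied more. With no filter, and with the floor at the 40th percentile, 0 probe sets passed in all, with 0 genes of the pathway lists and 0 of the marker lists. That floor equals the filter, so neither run left out a dim probe set, and the 2 runs do not separate the floor from the filter. With no filter 1202 of 12422 had an unadjusted p under 0.05 in limma. With no intensity trend 7 probe sets passed, with 3 pathway genes and 1 marker gene, and with the floor at the 5th percentile 17 probe sets passed. With 1 array left out the count over all probe sets ran from 1 to 78, that of the pathway lists from 0 to 9 and that of the marker lists from 1 to 10, and a group with 1 array is then assumed to vary like the other. The causes were not tested. No paired analysis was possible because the labels number the arrays 1 and 2 in 1 group and 3 and 4 in the other. With 2 arrays per group and no detection calls, dim probe sets such as those of Rel, Tnfaip3 and Nfkbie are the least certain.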
